A study of Mus musculus with 11 samples.

Results

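The small RNA of virtual memory (VM) and true naive (TN) CD8+ T cells from the spleens of mice labelled clean was compared library by library. There were 3 VM libraries (Clean_VM replicates 1, 2 and 3) and 2 naive ones (Clean_TN replicates 2 and 3), 5 of the 11 libraries of the series, chosen by their titles. The other 6 came from the same subsets of mice labelled dirty (3 Dirty_TN and 3 Dirty_VM) and enter here only through the shared estimate of the spread and for contrast. Every group was CD49dlo GFP+ CD4- CD8+ spleen cells. VM cells were CD44hi and naive cells CD44lo, and the labels call both populations stamped. They define neither clean, dirty nor stamped, and they give no strain, age, sex or allele that drives GFP. Sorting purity was above 95%, and 10000 cells went into each extraction. Nothing in the labels says that replicates came from separate animals, so the p-values measure the spread between these libraries, which may be technical. With 5 libraries the spread within naive cells rests on 1 difference, between replicates 2 and 3. All 2008 miRNA rows of the table were taken, 1 per mature miRNA and hairpin, with same-named rows of identical counts kept once, and 545 of them (524 miRNAs) had enough counts to be tested.

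Virtual memory cells are CD8+ T cells that carry a memory phenotype, with high CD44, without having met a foreign antigen, and they arise largely from responses to self ligands and to cytokines such as IL-15. Low CD49d separates them from memory cells made in response to foreign antigen. A miRNA is cut from 1 arm of a folded RNA hairpin, the 5p or the 3p arm, and loaded into an Argonaute protein, which it guides to messenger RNAs that pair with its seed, bases 2 to 8. The other arm is usually degraded, so that 1 arm of a hairpin is abundant and the other scarce. miRNAs with a common seed have overlapping predicted targets.

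The mature sequences that carry the comparison are printed 5′ to 3′ from RefSeq (GRCm38.p6) with the seed in capitals. The first set holds miRNAs that were higher in VM cells and stood out by abundance or by the size of the change, or, for miR-96-5p, belonged to a cluster that rose.
miR-21a-5p: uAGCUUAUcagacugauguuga
miR-139-5p: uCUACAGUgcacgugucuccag
miR-139-3p: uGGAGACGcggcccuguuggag
miR-30a-5p: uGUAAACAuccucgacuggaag
miR-30a-3p: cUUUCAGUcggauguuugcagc
miR-30c-2-3p: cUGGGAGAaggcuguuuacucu
miR-148a-3p: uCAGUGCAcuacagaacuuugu
miR-183-5p: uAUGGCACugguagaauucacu
miR-182-5p: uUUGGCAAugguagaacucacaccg
miR-96-5p: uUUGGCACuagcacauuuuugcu
miR-10a-5p: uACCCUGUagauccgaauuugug
miR-146a-5p: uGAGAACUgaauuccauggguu
miR-155-5p: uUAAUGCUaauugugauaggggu
The next set was lower in VM cells. It shows how related miRNAs fall into seed groups, since miR-211-5p has the seed of miR-204-5p, miR-181a-5p that of miR-181b-5p, and miR-27a-3p that of miR-27b-3p.
miR-211-5p: uUCCCUUUgucauccuuugccu
miR-204-5p: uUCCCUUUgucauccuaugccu
miR-181a-5p: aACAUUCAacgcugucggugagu
miR-181b-5p: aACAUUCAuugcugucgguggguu
miR-125a-5p: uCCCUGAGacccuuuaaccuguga
miR-99b-5p: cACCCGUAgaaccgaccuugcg
miR-132-3p: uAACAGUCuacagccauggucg
miR-27a-3p: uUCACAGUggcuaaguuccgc
miR-27b-3p: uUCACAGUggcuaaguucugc
miR-142a-5p: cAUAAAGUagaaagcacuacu
Counted from 1 at the 5′ end, miR-211-5p differs from miR-204-5p by U17A and miR-27a-3p from miR-27b-3p by C19U. miR-181a-5p differs from miR-181b-5p by A9U, C10U and A21G. All of these lie outside the seed.

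Library totals were 9835364 and 3118537 estimated counts in naive replicates 2 and 3, and 4116012, 10630453 and 10492633 in VM replicates 1, 2 and 3. Between 661 and 780 miRNAs had a count in each. A floor of 3 counts corresponds to 0.282 to 0.962 CPM, the count scaled to library size. The replicates of each group differed from one another by far more than counting noise, which does not show that they came from separate animals. Each library was counted as its own sample. Dirty_TN replicate 3 stood furthest from its group, with a chi-square per degree of freedom of 535 and 1804 against the other Dirty_TN libraries, while all other pairs within a group had 37.3 to 232. The lymphocyte miRNAs miR-150-5p, miR-142a-3p, miR-142a-5p, miR-342-3p, miR-181a-5p and miR-155-5p together stood at 158207 to 159490 CPM in naive and 79934 to 109979 CPM in VM libraries. Of these 6 miRNAs 1 rose and 2 fell, beside 9.72% and 7.71% of all tested rows. The 3 miRNAs listed for myeloid cells (both miR-223 arms, and miR-124-3p, which is better known from neurons) summed to 0.243 to 3.48 CPM over the 5 libraries, and the endothelial and platelet miR-126a arms to 19.6 to 46.0 CPM. Levels below are CPM on TMM-scaled totals. Sums over a list, above and below, are instead CPM on library totals without TMM, with repeated rows included. Every log2 change is VM minus naive ± its standard error with a Benjamini-Hochberg adjusted p from edgeR over the 545 rows.

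In clean mice 95 of the 545 rows passed at an adjusted p of 0.05, which is 17.4% of the rows tested. VM cells were higher in 53 (9.72%) and lower in 42 (7.71%). They are 92 distinct miRNAs. Of the 95 rows 73 changed by more than 1 on the log2 scale and 19 by more than 2. In all 95 the VM and naive libraries did not overlap, while over all 545 rows the libraries were separate in 287 (52.7%). The median log2 change of all rows was 0.08. It was -0.13 when counts were scaled to library totals alone, and 40 rows then rose and 55 fell. Because only the pooled RNA of each sort was measured, fewer cells of a type and less RNA per cell cannot be told apart.

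**Figure D1:**
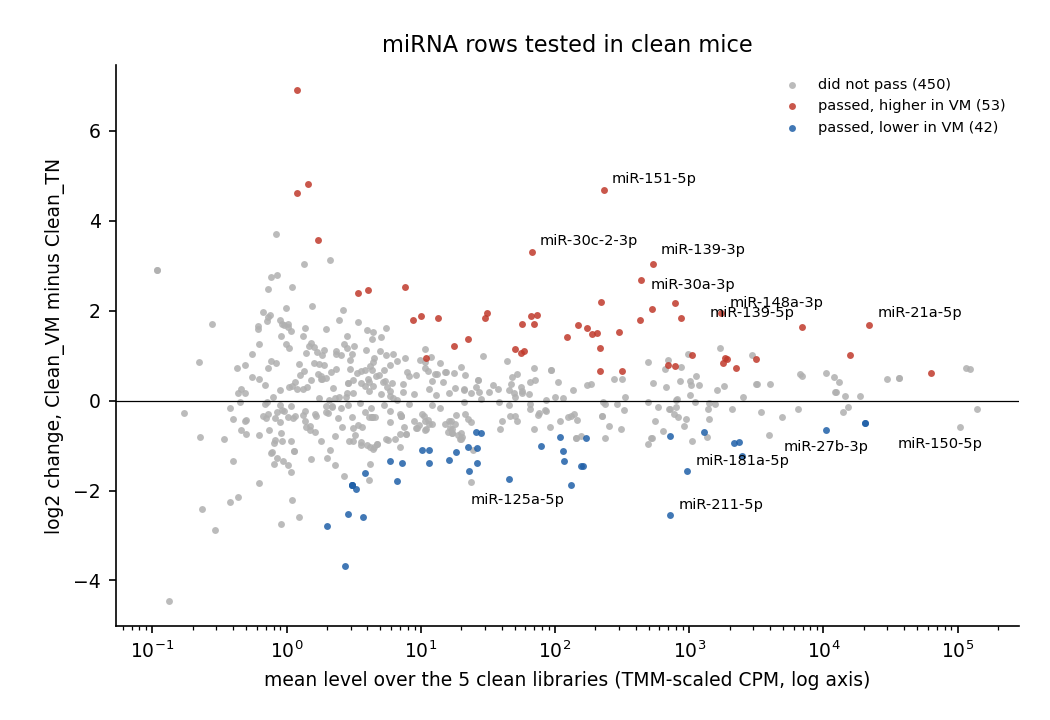
Each point is 1 of the 545 tested miRNA rows, with its mean level over the 5 clean libraries (TMM-scaled CPM, log axis) against its log2 change, VM minus naive. The 53 red points passed as higher and the 42 blue points as lower in VM cells, among them miR-21a-5p at 1.69 ± 0.20 and miR-211-5p at -2.55 ± 0.24.

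The choice of libraries mattered for how many rows passed. Without naive replicate 2 there were 34 and without naive replicate 3 there were 33, of which 33 and 32 were among the 95. Without VM replicates 1, 2 or 3 there were 98, 73 and 61. A core of 25 rows, 13 higher and 12 lower, passed whichever of the 5 libraries was left out. The higher ones among them include miR-21a-5p, both arms of miR-139, miR-30a-3p, miR-30c-2-3p, miR-10a-5p, miR-504-5p, miR-148a-3p, miR-151-3p, miR-182-5p and miR-183-5p. The lower ones include miR-211-5p, miR-181a-5p, miR-181a-1-3p, miR-181b-5p, miR-125a-5p, miR-99b-5p, miR-132-3p, miR-27a-3p and miR-339-3p. A further 2 rows, miR-7683-3p and miR-378a-5p, passed with all libraries and in none of these 5 fits.

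miR-21a-5p, which is induced when T cells are activated, was the most abundant riser in that core. It stood at 8498 and 10227 CPM in the naive libraries and at 32735, 26507 and 31136 CPM in the VM libraries. Every VM library was thus more than 2 times the higher naive library, and the log2 change was 1.69 ± 0.20 (adjusted p = 0.000105). Its level ranked 11 among all tested rows. The hairpin lies in an exon of Vmp1 at chr11:86584067-86584158 (mm10). The NF-kB-induced miR-146a-5p, a brake on signalling through Traf6 and Irak1, had 9405 and 10362 CPM in naive and 24432, 15774 and 19426 CPM in VM libraries, a log2 change of 1.01 ± 0.25 (adjusted p = 0.0146). miR-155-5p, which effector CD8+ T cells need, rose by 0.95 ± 0.23 (adjusted p = 0.0146), from 1164 and 1225 CPM in naive to 2548, 2716 and 1659 CPM in VM libraries, and VM replicate 3 was the lowest of its group. With 1 clean library left out the call was lost for miR-146a-5p without naive 2 or 3 or VM 3 (0.82 to 0.98) and miR-155-5p without naive 2 or 3 or VM 2 (0.64 to 0.94), where brackets hold the range of log2 changes over the 5 such fits.

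These 3 miRNAs belong to a list of 14 T cell activation and memory miRNAs, of which 13 were tested, 8 rose and 1 fell, with a median log2 change of 0.95. Over all rows 9.72% rose and 7.71% fell, with a median of 0.08. Those shares include rows below 10 CPM, which passed less often (7.39%, against 36.7% of rows with 100 to 1000 CPM). The list was chosen with earlier results of these data known. Its members from the miR-183 cluster are not separate observations, so the count is a description only. The cluster of miR-183, miR-96 and miR-182, whose miR-182 is induced by IL-2 and represses Foxo1, rose as a whole. miR-183-5p had 70.6 and 69.3 CPM in naive and 321, 300.4 and 336 CPM in VM libraries (log2 change 2.19 ± 0.43, adjusted p = 0.00479). miR-182-5p had 179 and 171 CPM in naive and 616, 568 and 633 CPM in VM libraries (1.79 ± 0.35, adjusted p = 0.00495). The scarcer miR-96-5p had 7.47 and 6.33 CPM in naive and 12.3, 14 and 14 CPM in VM libraries (0.96 ± 0.26, adjusted p = 0.0243). The replicates of each group lay within a narrow band for all 3, and the cluster sits between genes at chr6:30165918-30169737 on the minus strand. The other members that rose were miR-31-5p (1.88 ± 0.54, adjusted p = 0.0305) and miR-222-3p (0.66 ± 0.20, adjusted p = 0.0366), a miRNA that represses Kit and the cell cycle inhibitor Cdkn1b. Its cluster partner miR-221-3p was at -0.21 ± 0.27 (adjusted p = 0.622). The member that fell was miR-132-3p, a CREB-responsive miRNA. The list's count was 4 without naive replicate 2 or 3 and 5 without VM replicate 3. The call did not survive the loss of 1 library for miR-96-5p without naive 2 or 3 or VM 2 or 3 (0.73 to 1.07), miR-31-5p without naive 2 or 3 or VM 1 or 3 (1.39 to 2.45) and miR-222-3p without naive 2 or 3 or VM 2 or 3 (0.44 to 0.76).

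Both arms of miR-139 were higher in VM cells. The abundant arm miR-139-5p, a tumour suppressor that represses Igf1r and Notch1, had 2984 and 3086 CPM in naive and 8329.9, 9356 and 10653 CPM in VM libraries, a log2 change of 1.64 ± 0.19 (adjusted p = 0.000105). The scarce arm miR-139-3p had 97.3 and 103 CPM in naive and 725, 853 and 894 CPM in VM libraries, a change of 3.04 ± 0.42 (adjusted p = 0.000341). Neither arm overlapped between the groups. The ratio of 5p to 3p counts was 30.7 and 30 in the naive libraries and 11.5, 11 and 11.9 in the VM libraries, so the scarce arm gained on the abundant one. The hairpin lies at chr7:101475376-101475443 in an intron of Gm45837, a locus that overlaps Pde2a on the same strand. The RefSeq hairpin is shown with the 5p and then the 3p arm in capitals.
hairpin Mir139: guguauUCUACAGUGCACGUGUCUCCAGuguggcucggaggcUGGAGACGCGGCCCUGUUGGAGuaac

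The same held for miR-30a on chromosome 1. Its 3p arm miR-30a-3p had 92.3 and 113 CPM in naive and 592, 662 and 712 CPM in VM libraries (2.68 ± 0.25, adjusted p = 2.55e-05). Its 5p arm miR-30a-5p had 330.2 and 358 CPM in naive and 1658, 697 and 1322 CPM in VM libraries (1.83 ± 0.41, adjusted p = 0.00982), with VM replicate 2 well below the other VM libraries. The neighbouring hairpin mir-30c-2, in an exon of the lncRNA Gm27028, gave miR-30c-2-3p at 10.5 and 10.5 CPM in naive and 112, 105 and 97.3 CPM in VM libraries, a change of 3.31 ± 0.37 (adjusted p = 0.000105). The 2 naive values almost coincide and the VM values are close to 10 times as high. The hairpins lie at chr1:23272269-23272339 and chr1:23291701-23291784. Both hairpins are shown with their arms in capitals.
hairpin Mir30a: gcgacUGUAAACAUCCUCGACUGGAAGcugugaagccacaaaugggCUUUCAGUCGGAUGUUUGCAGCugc
hairpin Mir30c-2: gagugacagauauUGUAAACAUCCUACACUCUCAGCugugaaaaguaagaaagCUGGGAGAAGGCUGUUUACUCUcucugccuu
The rest of the miR-30 family, whose members have the 5p seed GUAAACA, did not pass. miR-30b-5p was at -0.90 ± 0.36 (adjusted p = 0.103), miR-30c-5p at -0.35 ± 0.20 (0.238), miR-30d-5p at -0.15 ± 0.24 (0.706) and miR-30e-5p at -0.81 ± 0.30 (0.0856). Of the 5 tested family members 1 rose and none fell, beside 9.72% and 7.71% of all rows, and the median was -0.35. The number passing in either direction was 3 on the 5 clean libraries alone and with every counted row. It was 2 in DESeq2, at 10 CPM or more and with library totals. In the fit of all 11 libraries the members other than miR-30a-5p all lay below 0, so these counts are not counts of risers. miR-30a-5p did not pass without naive replicate 2 or 3, with log2 changes of 1.57 to 1.94 over the 5 fits.

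miR-151-5p had the largest change among miRNAs of 10 CPM or more. It stood at 14.9 and 13.9 CPM in the naive libraries and 362, 445 and 316 CPM in the VM libraries, a log2 change of 4.70 ± 1.09 (adjusted p = 0.0219). The more abundant miR-151-3p had 224 and 279.5 CPM in naive and 880.2, 1225 and 1297 CPM in VM libraries (2.17 ± 0.37, adjusted p = 0.00172). The ratio of 3p to 5p counts was 15 and 20.2 in naive and 2.43, 2.75 and 4.11 in VM libraries. The dirty libraries held miR-151-5p at 79.8, 147 and 10.3 CPM in naive and 17.9, 74 and 48.3 CPM in VM cells, and the wide spread of those naive libraries enters its standard error here. Fitted on the 5 clean libraries alone its adjusted p was 2.27e-08. Leaving out 1 library ended the call for miR-151-5p without naive 2 or 3 (4.38 to 4.77), and it was lost too when every row with a count was kept.

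miR-148a-3p, which targets Bim in lymphocytes, had 593 and 674 CPM in naive and 1790.2, 2928 and 2619.5 CPM in VM libraries, a change of 1.95 ± 0.33 (adjusted p = 0.00187). Its family members, of which 1 of 3 rose with a median of 0.54, include miR-148b-3p (0.54 ± 0.22, adjusted p = 0.11) and miR-152-3p (-0.10 ± 0.53, adjusted p = 0.912), which did not pass. miR-130b rose on both arms, from 163 and 208 CPM in naive to 854, 678 and 747 CPM in VM libraries for miR-130b-5p (2.03 ± 0.40, adjusted p = 0.00495) and from 38 and 28.9 CPM in naive to 79.2, 72.5 and 60.3 CPM in VM libraries for miR-130b-3p (1.07 ± 0.25, adjusted p = 0.0131). Its 5p arm was the more abundant one. Of 4 miRNAs with the 3p seed of miR-130 and miR-301 only 2 were tested, miR-130b-3p rose and the median was 0.96. In the miR-15/16 family, whose members restrain the cell cycle and Bcl2, 2 of 6 rose and the median was 0.27. The comparison for this family and those of miR-148 and miR-130 is the 9.72% of all rows that rose. miR-15a-5p had 24.5 and 23.5 CPM in naive and 93.9, 85.4 and 56.4 CPM in VM libraries (1.71 ± 0.37, adjusted p = 0.00879), and miR-195a-5p had 14 and 8.43 CPM in naive and 38.1, 30.8 and 20.7 CPM in VM libraries (1.38 ± 0.39, adjusted p = 0.0278). The abundant miR-16-5p was at 0.36 ± 0.26 (adjusted p = 0.345). Calls that depended on 1 library were those of miR-130b-5p without naive 2 (1.80 to 2.08), miR-130b-3p without naive 3 (0.76 to 1.22), miR-15a-5p without naive 2 or 3 (1.46 to 1.70) and miR-195a-5p without naive 2 or 3 or VM 2 (0.94 to 1.74).

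miR-10a-5p, from the Hoxb locus, had 28 and 31.9 CPM in naive and 84, 108 and 98.7 CPM in VM libraries (1.70 ± 0.21, adjusted p = 0.000181). miR-10b-5p, from the Hoxd locus and differing from it by U12A (counted from 1 at the 5′ end of miR-10a-5p), was at 30.2 and 28.3 CPM in naive and 34.6, 64.9 and 63.2 CPM in VM libraries and did not pass (0.89 ± 0.42, adjusted p = 0.166). VM replicate 1 was close to the naive libraries there and the other VM libraries were higher. miR-504-5p, a repressor of p53 encoded in an Fgf13 intron at chrX:59097658-59097736, rose from 64.2 and 63.6 CPM in naive to 191, 197 and 228 CPM in VM libraries (1.68 ± 0.25, adjusted p = 0.000531). Among scarcer risers miR-664-5p had 13.1 and 10.5 CPM in naive and 34.1, 38.2 and 54.6 CPM in VM libraries (1.83 ± 0.30, adjusted p = 0.00157), and miR-8103 had 11.7 and 11.4 CPM in naive and 47.2, 45.3 and 40.7 CPM in VM libraries (1.94 ± 0.50, adjusted p = 0.0187). miR-3474 was at 4.19 and 6.63 CPM in naive and 14.2, 19 and 23.3 CPM in VM libraries (1.84 ± 0.56, adjusted p = 0.0401). With 1 clean library left out the call was lost for miR-8103 without naive 2 or 3 (1.76 to 1.95) and miR-3474 without naive 2 or 3 or VM 2 or 3 (1.45 to 2.06).

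**Figure D2:**
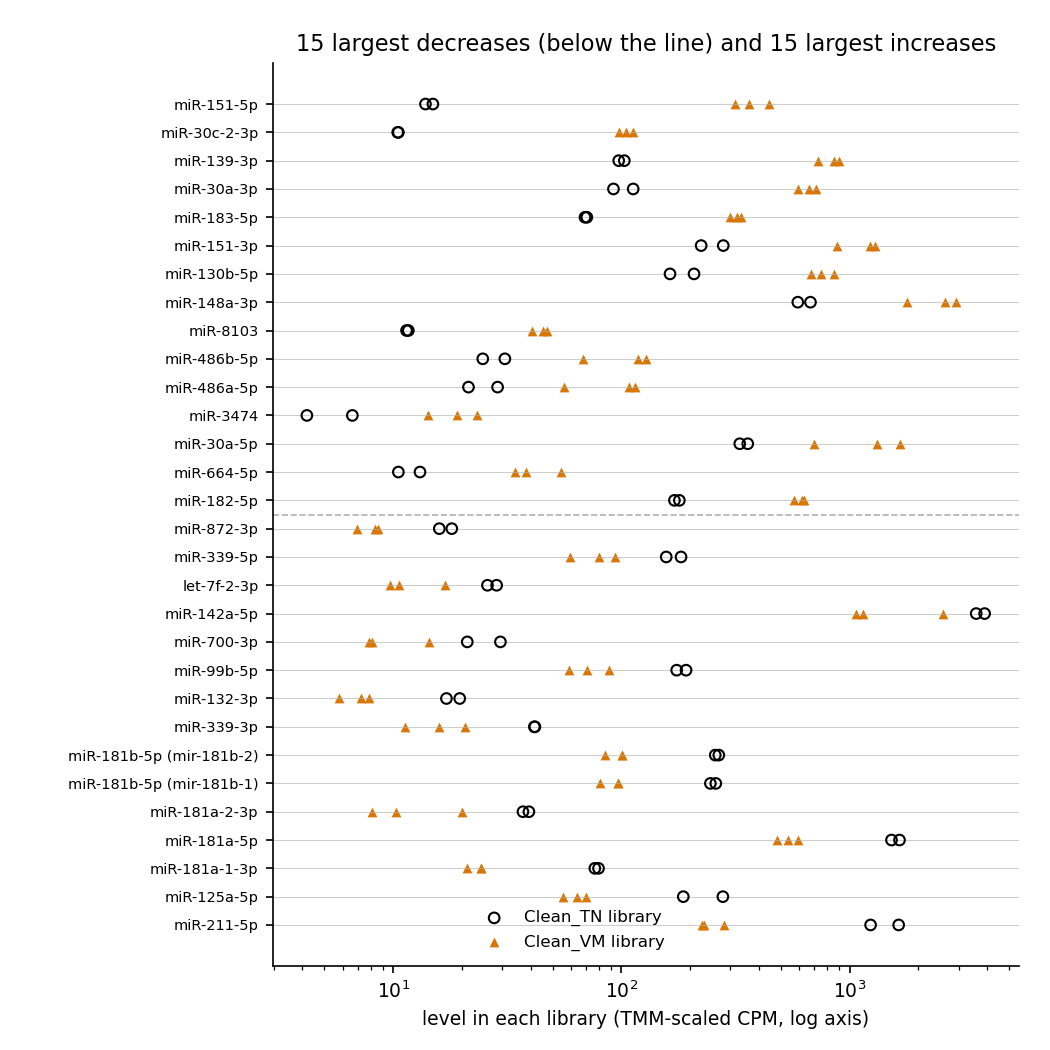
Level in each library (TMM-scaled CPM, log axis) of the 15 largest increases and 15 largest decreases. Rows were taken from those that passed, had 10 CPM or more and did not overlap between the groups. Open circles are the 2 naive and triangles the 3 VM libraries, which are separate in every row by that choice. miR-151-5p at the top shows the widest gap, between 14.9 and 13.9 CPM in naive and 362, 445 and 316 CPM in VM libraries.

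miR-211-5p showed the largest decrease among miRNAs of 10 CPM or more. It is best known from melanocytes and is encoded in an intron of Trpm1 at chr7:64205806-64205911. It had 1236 and 1640.3 CPM in the naive libraries and 225, 281 and 229 CPM in the VM libraries, and the highest VM library lay far below the lower naive one. The log2 change was -2.55 ± 0.24 (adjusted p = 2.55e-05). Its 3p arm fell with it, from 6.46 and 5.42 CPM in naive to 1.61, 0.878 and 2.11 CPM in VM libraries (-1.96 ± 0.48, adjusted p = 0.0154). The ratio of 5p to 3p counts was 191 and 303 in naive and 140.0, 320.1 and 109 in VM libraries, ranges that overlap. miR-204-5p, from a Trpm3 intron, shares its seed and fell from 4.92 and 6.63 CPM in naive to 0.268, 1.37 and 1.1 CPM in VM libraries (-2.51 ± 0.57, adjusted p = 0.00985). Its sequence differs at 1 base, and whether reads of 1 were counted for the other was not tested. The call did not survive the loss of 1 library for miR-204-5p without naive 3 (-3.0 to -2.15) and miR-211-3p without naive 2 or 3 (-2.52 to -1.80). The miR-211 hairpin is shown with the 5p and then the 3p arm in capitals.
hairpin Mir211: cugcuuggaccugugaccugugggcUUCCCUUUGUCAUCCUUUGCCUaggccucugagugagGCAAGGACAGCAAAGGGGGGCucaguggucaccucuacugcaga

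Of the miR-181 family, which tunes T cell receptor sensitivity in thymocytes by repressing phosphatases such as Ptpn22 and Dusp6, 2 of 4 members fell. The share of all rows that fell was 7.71%. miR-181a-5p had 1654 and 1526 CPM in naive and 482, 539 and 597 CPM in VM libraries (-1.56 ± 0.22, adjusted p = 0.000458). It comes from 2 hairpins with identical counts, so this level is that of 1 of them. miR-181b-5p had 267 and 258 CPM in naive and 84.8, 101 and 100.2 CPM in VM libraries on its row of mir-181b-2 (-1.46 ± 0.19, adjusted p = 0.00027), and its other row had -1.46 ± 0.20. miR-181c-5p was at 46.9 and 50.6 CPM in naive and 66.3, 63.4 and 50 CPM in VM libraries (0.30 ± 0.29, adjusted p = 0.505) and miR-181d-5p at 299 and 348 CPM in naive and 368, 296 and 362 CPM in VM libraries (0.08 ± 0.21, adjusted p = 0.821). Both have the same seed, and in both the libraries of the groups overlap. The family's count of 2 did not move under any alternative tried.

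The passenger arms of miR-181 tell the source hairpins apart. miR-181a-1-3p, from chr1:137966455-137966541, fell from 79.4 and 76.5 CPM in naive to 24.2, 21.2 and 24.4 CPM in VM libraries (-1.75 ± 0.21, adjusted p = 0.000105). miR-181b-1-3p, from chr1:137966639-137966718, fell from 2.82 and 5.42 CPM in naive to 0.805, 0.683 and 0.301 CPM in VM libraries (-2.79 ± 0.62, adjusted p = 0.00905). miR-181a-2-3p, from chr2:38852735-38852810, fell from 39.3 and 37 CPM in naive to 8.05, 20.1 and 10.3 CPM in VM libraries (-1.56 ± 0.44, adjusted p = 0.0299), with VM replicate 2 the highest of its group. Passenger arms from both loci were thus lower in VM cells. Leaving out 1 library ended the call for miR-181a-2-3p without naive 2 or 3 or VM 1 or 3 (-2.20 to -1.29) and miR-181b-1-3p without naive 3 (-3.28 to -2.42).

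The miR-99b and miR-125a hairpins, known to lie with let-7e at the Spaca6 locus on chromosome 17, gave 2 of the larger decreases. miR-125a-5p, abundant in haematopoietic stem cells, fell from 278 and 187 CPM in naive to 63.6, 70.1 and 55.5 CPM in VM libraries (-1.88 ± 0.30, adjusted p = 0.000979). miR-99b-5p fell from 192 and 175 CPM in naive to 58.8, 87.8 and 70.8 CPM in VM libraries (-1.34 ± 0.28, adjusted p = 0.00634). let-7e-5p from between them was at 213 and 244 CPM in naive and 255, 206 and 216 CPM in VM libraries (-0.02 ± 0.29, adjusted p = 0.958) and overlapped between the groups. None of the paralogs from other loci passed, with miR-99a-5p at 0.47 ± 0.45 (adjusted p = 0.501), miR-100-5p at 0.52 ± 0.37 (0.354) and miR-125b-5p at 0.47 ± 0.44 (0.493). Of the 7 tested members of this group, in which miR-10a and miR-10b were counted too, 1 rose and 2 fell, and the median was 0.47. The shares of all rows were 9.72% and 7.71%. miR-132-3p fell from 17.1 and 19.6 CPM in naive to 7.25, 7.8 and 5.82 CPM in VM libraries (-1.40 ± 0.25, adjusted p = 0.00245), and its scarce arm miR-132-5p fell from 6.56 and 6.33 CPM in naive to 1.61, 2.05 and 2.51 CPM in VM libraries (-1.61 ± 0.37, adjusted p = 0.00985). The last call was not kept for miR-132-5p without naive 2 or 3 (-1.97 to -1.44).

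The clusters of miR-23, miR-27 and miR-24, which restrain T cell effector programmes, were lower, with 4 of 5 members falling and a median of -0.69. miR-27b-3p had 13145 and 13391 CPM in naive and 8699, 7744 and 8999 CPM in VM libraries (-0.65 ± 0.17, adjusted p = 0.0187). miR-27a-3p had 3307 and 3247 CPM in naive and 1702, 1621 and 1902 CPM in VM libraries (-0.91 ± 0.18, adjusted p = 0.00527). miR-23a-3p was at -0.94 ± 0.22 (adjusted p = 0.0115), miR-24-3p at -0.69 ± 0.18 (0.0219) and miR-23b-3p, which did not pass, at -0.41 ± 0.19 (0.157). Over all rows 7.71% fell. The libraries of the groups did not overlap for any of the 5, nor for 52.7% of all rows. The scarce arms did not pass. Above 0 were miR-27a-5p at 0.41 ± 0.27 (adjusted p = 0.311) and miR-23a-5p at 0.22 ± 0.48 (0.786). So were miR-27b-5p at 0.05 ± 0.35 (0.935) and miR-23b-5p at 0.67 ± 0.43 (0.299). The scarce arm miR-24-1-5p lay below 0 like miR-24-3p, at -0.44 ± 0.26 (0.254). Without naive replicate 2 only 1 member passed, miR-27a-3p, and with the replicate number as a block 2 passed. Calls that depended on 1 library were those of miR-23a-3p without naive 2 (-1.19 to -0.92), miR-24-3p without naive 2 (-0.93 to -0.63) and miR-27b-3p without naive 2 or 3 (-0.89 to -0.61).

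Among miRNAs typical of resting T cells 1 of 10 tested rose, which was miR-139-5p, and 2 fell, with a median of -0.37. All rows gave 9.72% rising and 7.71% falling, with a median of 0.08. miR-142a-5p, from a haematopoietic locus, had 3587 and 3904 CPM in naive and 2564, 1143 and 1069 CPM in VM libraries (-1.23 ± 0.34, adjusted p = 0.0278), while its 3p arm was at -0.08 ± 0.20 (adjusted p = 0.819). VM replicate 1 lay between the other VM libraries and the naive ones. miR-26a-5p, 1 of the 10 most abundant rows, had 24312 and 25114 CPM in naive and 19289, 16659.6 and 16952 CPM in VM libraries (-0.49 ± 0.16, adjusted p = 0.0466). miR-150-5p, which represses Myb in lymphocytes, had 127385 and 134280.0 CPM in naive and 77261, 103730.0 and 79035 CPM in VM libraries and did not pass (-0.59 ± 0.24, adjusted p = 0.116). miR-342-3p was at -0.76 ± 0.30 (adjusted p = 0.0995). Other decreases were both arms of miR-339, with miR-339-3p at 41.8 and 41.6 CPM in naive and 20.7, 11.3 and 15.8 CPM in VM libraries (-1.40 ± 0.28, adjusted p = 0.00567) and miR-339-5p at -1.13 ± 0.30 (0.0223). miR-700-3p (-1.31 ± 0.32, adjusted p = 0.0146), miR-872-3p (-1.10 ± 0.30, 0.0272) and let-7f-2-3p (-1.15 ± 0.37, 0.0495) complete the 15 largest decreases among rows of 10 CPM or more. With 1 clean library left out the call was lost for miR-142a-5p without naive 2 or 3 or VM 3 (-1.71 to -1.22), miR-339-5p without naive 2 or 3 or VM 3 (-1.38 to -1.09), miR-700-3p without naive 3 or VM 1 (-1.86 to -1.13), miR-872-3p without naive 2 or 3 or VM 1 or 3 (-1.30 to -1.11), let-7f-2-3p without naive 2 or 3 or VM 2 or 3 (-1.37 to -1.15) and miR-26a-5p (mir-26a-2) without naive 2 or 3 or VM 1 (-0.66 to -0.51).

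**Figure D3:**
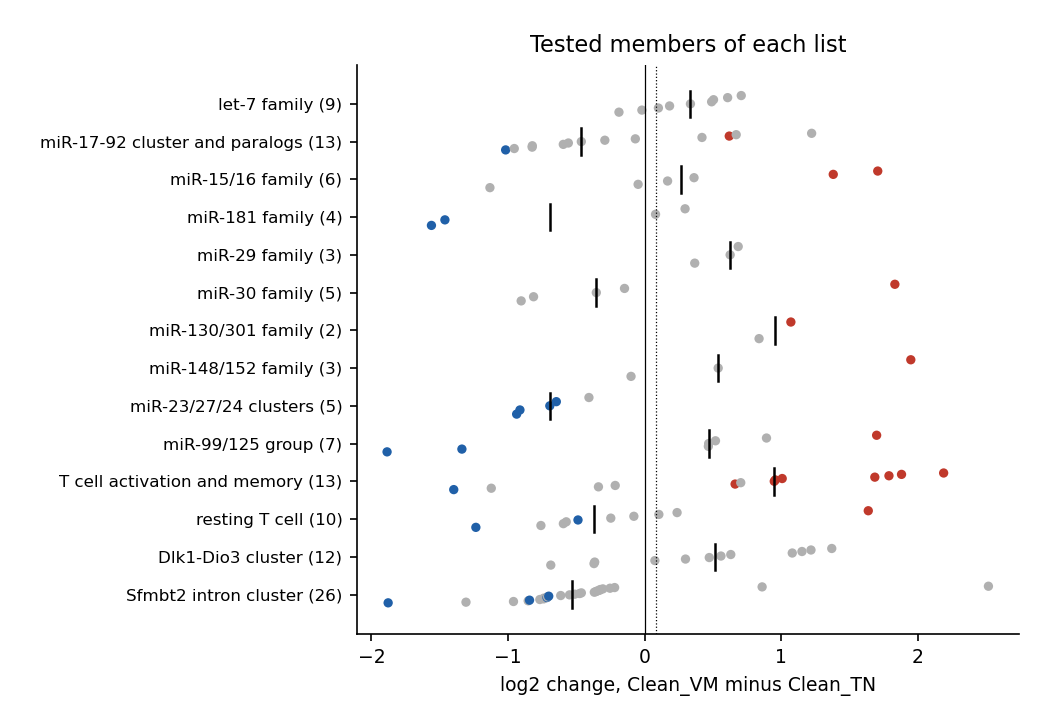
Log2 change, VM minus naive, of each tested member of the 14 miRNA lists (number tested in brackets), red where it passed as higher, blue where it passed as lower and grey where it did not pass. Black bars are list medians, the solid line is 0 and the dotted line the median of all rows, 0.08; the T cell activation list lies mostly to the right (8 of 13 passed as higher) and the miR-23/27/24 clusters to the left (4 of 5 passed as lower).

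No member of the let-7 family, the most abundant family in these cells, passed, though 2 did on the 5 clean libraries alone, 1 in DESeq2 and 1 with library totals as the scaling. let-7f-5p came nearest, at 82846 and 95208 CPM in naive and 151938, 140274 and 144117 CPM in VM libraries on its row of let-7f-2 (0.71 ± 0.26, adjusted p = 0.0781) and an adjusted p of 0.0736 on that of let-7f-1, and let-7g-5p, the most abundant row by the mean of both groups, was at -0.19 ± 0.18 (adjusted p = 0.493). The family's median was 0.34 over 9 members. In the proliferation-linked miR-17-92 cluster and its paralogs 1 of 13 rose and 1 fell, with a median of -0.46. Passing members thus made up 15.4% of this list, near the 17.4% of all rows. miR-92a-3p rose from 47121 and 48917 CPM in naive to 70593, 74039 and 76841 CPM in VM libraries (0.62 ± 0.20, adjusted p = 0.0466) on its row of mir-92a-1, while its scarcer row of mir-92a-2 was at 0.52 ± 0.22 (adjusted p = 0.127). In the same list miR-106a-5p fell from 132 and 92.8 CPM in naive to 70.8, 50.3 and 46.4 CPM in VM libraries (-1.02 ± 0.30, adjusted p = 0.0328). This count moved with the processing, from 0 without naive replicate 2, VM replicate 2 or VM replicate 3 to 6 without VM replicate 1 and 6 on the 5 clean libraries alone. The loss of 1 library undid the calls of miR-92a-3p (mir-92a-1) without naive 2 or 3 or VM 2 or 3 (0.40 to 0.70) and miR-106a-5p without naive 2 or VM 2 or 3 (-1.39 to -0.81).

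The miR-29 family, which represses Tbx21, Eomes and Ifng, had no call among 3 members, with miR-29b-3p at 0.69 ± 0.26 (adjusted p = 0.0906) and a median of 0.63. The imprinted Dlk1-Dio3 cluster was barely measured, with 12 of its 33 listed miRNAs tested, none passing, 8 at 0 in all 5 clean libraries, and a summed level of 45.2 to 95.5 CPM. Of 26 tested miRNAs of the rodent cluster in an intron of Sfmbt2 (the miR-297, 466, 467 and 669 families) none rose, 4 fell and 24 lay below 0, with a median of -0.53, beside 7.71% falling and a median of 0.08 over all rows. The most abundant listed member, miR-669c-5p, lay above 0, with means of 329 CPM in naive and 598 CPM in VM libraries. It did not pass (0.86 ± 0.43, adjusted p = 0.188). A listed miRNA on several rows is counted by its most abundant one. The scarcer mir-466f-1 and mir-466f-3 rows of miR-466f-3p fell too (-1.40 ± 0.31, adjusted p = 0.00879, and -1.04 ± 0.27, adjusted p = 0.0187), while its counted row of mir-466f-2 was at -0.37 ± 0.22 (adjusted p = 0.26). miR-467e-5p was the most abundant that fell, from 229 and 233 CPM in naive to 160.2, 119.8 and 107 CPM in VM libraries (-0.84 ± 0.21, adjusted p = 0.0163). These near-identical miRNAs can share reads, so they are not separate observations, and none of the counted rows passed without naive replicate 2 or 3 (miR-467e-5p at -0.98 to -0.92). The other rows of miR-466f-3p were lost only without naive replicate 3.

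Of 137 hairpins with both arms tested, 86 had arms that changed in the same direction. Both arms passed in 14, and in each of these both went the same way, 9 up (miR-130b, miR-139, miR-151, miR-1843a, miR-195a, miR-200a, miR-30a, miR-486a and miR-7683) and 5 down (miR-132, miR-181a-1, miR-181b-1, miR-211 and miR-339). Only for miR-139 and miR-181a-1 did both arms keep their calls whichever of the 5 clean libraries was left out. In the other pairs at least 1 arm lost its call in some of these fits. In 27 hairpins only the more abundant arm passed and in 8 only the scarcer one. In 45 hairpins the arms' changes differed by more than 1 on the log2 scale, a difference that was not tested. miR-664 was among them, with miR-664-5p at 1.83 ± 0.30 and its more abundant arm miR-664-3p at -0.20 ± 0.36 (adjusted p = 0.727). miR-30e was another, with miR-30e-3p at 0.72 ± 0.23 (adjusted p = 0.0466) and miR-30e-5p at -0.81 ± 0.30 (adjusted p = 0.0856). The call was not kept for miR-30e-3p without naive 2 or 3 or VM 2 or 3 (0.50 to 0.84). Its 3p to 5p ratio was 0.786 and 0.964 in naive and 1.56, 4.08 and 2.98 in VM libraries. miR-142a had a 5p to 3p ratio of 2.44 and 2.22 in naive and 1.44, 0.818 and 0.757 in VM libraries. Scarce arms as a whole held 1.52% ± 0.0776 of the counts in naive and 1.61% ± 0.00166 in VM libraries.

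**Figure D4:**
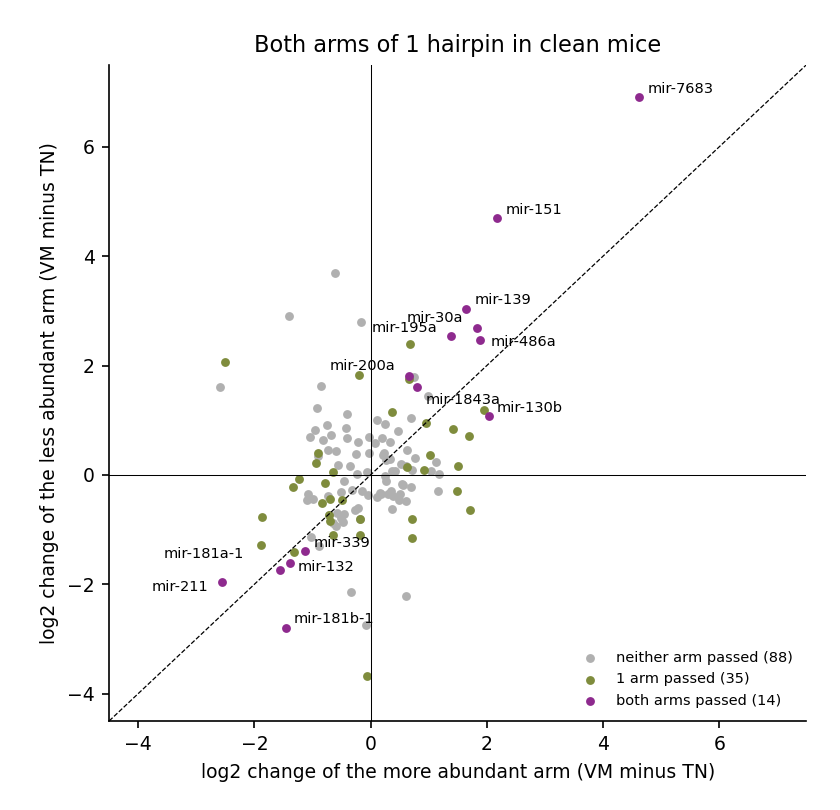
Log2 change (VM minus naive) of the less abundant arm against that of the more abundant arm for 137 hairpins, with the dashed line where both are equal. The 14 hairpins with both arms passing lie in the upper right (9) or lower left (5) corner, and miR-139 and miR-151 lie above the line, where the scarcer arm changed more.

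miRNAs were also summed by seed, because miRNAs with 1 seed have overlapping predicted targets. These totals include the repeated rows of a miRNA that the fit of rows kept once, and their CPM have their own TMM scaling. Of 459 totals 88 passed (19.2%), 45 higher and 43 lower in VM cells. Of these totals 356 are seeds, with 37 higher and 31 lower, and the other 103 are miRNAs without a matched sequence, which hold 13.9% of the counts. The miR-211 and miR-204 seed UCCCUUU fell from 1339.9 and 1769 CPM in naive to 210.5, 297 and 239.7 CPM in VM libraries (-2.64 ± 0.26, adjusted p = 1.81e-05), almost all of it miR-211-5p. The miR-181 seed ACAUUCA fell from 4513 and 4246 CPM in naive to 1453, 1719 and 1873 CPM in VM libraries (-1.38 ± 0.21, adjusted p = 0.000839), although miR-181c-5p and miR-181d-5p did not pass by themselves. The miR-27 seed UCACAGU fell from 17759.5 and 17871 CPM in naive to 9667, 9846 and 11322 CPM in VM libraries (-0.79 ± 0.18, adjusted p = 0.00742).

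Some seeds passed where few or none of their members did, in a fit with its own scaling and filter. miR-21a-5p changed by 1.69 in the fit of rows and its seed by 1.58 in that of seeds. The seeds given first all fell, and whether the scaling alone moved them past the threshold was not tested. The seed of miR-103 and miR-107, GCAGCAU, fell from 1879.8 and 1304 CPM in naive to 1047, 718 and 755 CPM in VM libraries (-0.92 ± 0.27, adjusted p = 0.0272) with no member passing by itself. The same holds for the miR-19 seed GUGCAAA (-0.89 ± 0.30, adjusted p = 0.0483). The seed AAAGUGC of miR-17, miR-20, miR-93 and miR-106 fell from 2672 and 2184 CPM in naive to 1643, 1342 and 1249 CPM in VM libraries (-0.78 ± 0.24, adjusted p = 0.0361), with miR-106a-5p the only member that passed. Among the seeds that rose were AGCUUAU of miR-21a (1.58 ± 0.20, adjusted p = 0.000124), CAGUGCA of miR-148 and miR-152 (1.21 ± 0.25, 0.00481) and ACCCUGU of miR-10 (1.27 ± 0.28, 0.00749). The seed GUAAACA of the 5p arms of miR-30a, miR-30c and miR-30e, without miR-30b-5p and the abundant miR-30d-5p, whose sequences were not matched, was at -0.39 ± 0.18 (adjusted p = 0.168), and did not pass although miR-30a-5p rose. The let-7 seed GAGGUAG was at 0.28 ± 0.17 (adjusted p = 0.27). Fewer seed totals passed with a naive library left out, 12 without replicate 2 and 22 without replicate 3, and 55 and 56 without VM replicates 2 and 3.

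Among hairpins with a position in the reference table, those within 10000 bp of each other on 1 strand formed 34 clusters with tested rows. The hairpins of miR-99b and of the Sfmbt2 intron have none there and are not counted, although miR-99b-5p and miR-125a-5p both fell. In 18 of the 34 no row passed, and in 5 at least 2 hairpins gave a row that passed. Within each of the 5 all passing rows went 1 way, up for the miR-183 cluster and down for both miR-181a and miR-181b pairs and for both clusters of miR-23, miR-27 and miR-24. All 4 arms of the mir-181a-1 and mir-181b-1 pair fell, all 3 rows of the miR-183 cluster rose, and both tested rows of mir-181a-2 and mir-181b-2 fell. miR-24-3p comes from 2 hairpins with identical counts, 1 in each of its clusters. miR-181b-5p likewise has 1 row in each miR-181 pair, at -1.46 in both, so the 2 pairs are not fully separate observations.

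In the make-up of the libraries let-7 held a larger and miR-150-5p a smaller share in VM cells. The let-7 seed held 49.8% ± 0.69 of the counts in naive libraries (SD, n = 2) and 55.5% ± 0.96 in VM libraries (n = 3), a difference of 5.62 points. miR-150-5p held 14.4% ± 0.04 and 8.22% ± 1.62, a difference of -6.19 points. For both the groups do not overlap, and the two-sided exact permutation p of 0.2 is the smallest that 2 against 3 libraries can give (0.267 adjusted over 4 measures). The 10 most abundant miRNAs of each library held 77.2% ± 0.50 and 77.4% ± 0.53 (exact permutation p = 0.8, adjusted 0.8).

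The rows that passed were not spread evenly over levels. Of 61 rows with 1000 CPM or more 18 passed (29.5%), of 79 with 100 to 1000 CPM 29 (36.7%), of 121 with 10 to 100 CPM 27 (22.3%) and of 284 below 10 CPM 21 (7.39%). The median standard error of a log2 change was 0.23 in the highest class and 0.72 in the lowest. Some of the largest estimates come from that lowest class and are given by level only. miR-7683-3p had no count in the naive libraries and 3.22, 1.27 and 1.5 CPM in the VM libraries. miR-7683-5p had 0.0911 and 0 CPM in naive and 1.07, 2.24 and 2.61 CPM in VM libraries, and miR-7213-5p had 0.0911 and 0 CPM in naive and 3.76, 2.34 and 1 CPM in VM libraries, with naive levels at or below the floor of 3 counts in both. miR-450b-3p went the other way, at 5.74 and 6.63 CPM in naive and 0, 0.293 and 0.903 CPM in VM libraries.

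In dirty mice 66 rows passed between the same subsets (12.1%), and 36 of them also passed in clean mice, which is 37.9% of the clean and 54.5% of the dirty calls. All 36 went the same way. Values of miRNAs in both environments follow, as each comparison's own. miR-21a-5p had a log2 change of 2.08 ± 0.17 in dirty mice, miR-139-5p 1.84 ± 0.16, miR-211-5p -1.83 ± 0.22, miR-181a-5p -1.82 ± 0.21, miR-125a-5p -2.26 ± 0.28 and miR-99b-5p -1.91 ± 0.26. Each has the sign it had in clean mice. Of the rows that rose in clean mice 20 changed by less than 0.3 on the log2 scale in dirty mice, as did 9 of those that fell. miR-148a-3p was at -0.10 ± 0.28 there (interaction -2.05 ± 0.43, adjusted p = 0.0935), with 1738, 1585 and 750.4 CPM in Dirty_TN and 1131, 1379.8 and 1280.3 CPM in Dirty_VM. miR-183-5p was at 0.02 ± 0.35 (interaction -2.17 ± 0.54, adjusted p = 0.095), miR-182-5p at 0.04 ± 0.30 (-1.75 ± 0.45, 0.0952) and miR-151-3p at 0.30 ± 0.30 (-1.87 ± 0.46, 0.095). miR-15a-5p was at -0.32 ± 0.32 (-2.03 ± 0.49, 0.095).

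The interaction, which tests whether the VM minus naive change differs between environments, passed for 0 of 545 rows in edgeR (0.0%), with 93 (17.1%) at an unadjusted p under 0.05 and a smallest adjusted p of 0.0935. DESeq2 called 25 rows and limma-voom 0. No miRNA is therefore called specific to clean mice here. Without Dirty_TN replicate 3 the interaction passed for 73 rows and the comparison within clean mice for 120 (56 higher and 64 lower). For miR-151-5p that library had the lowest level of Dirty_TN and lay near the clean naive libraries (79.8, 147 and 10.3 CPM in replicates 1, 2 and 3, against 14.9 and 13.9 CPM).

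**Figure D5:**
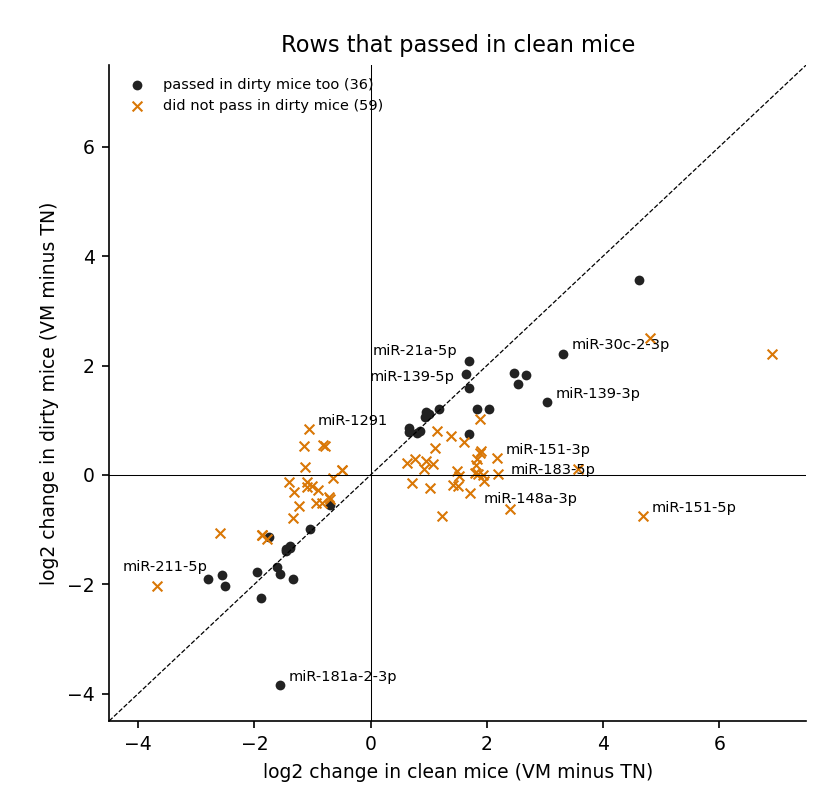
For the 95 rows that passed in clean mice, the log2 change (VM minus naive) in dirty mice against that in clean mice, with the dashed line where both are equal. Dots (36) passed in dirty mice too and lie on the same side of 0 in both; crosses (59) did not, and many, such as miR-148a-3p at -0.10 ± 0.28, lie near 0 on the vertical axis.

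Marker miRNAs of cells other than T cells were compared as well, beside 9.72% of all rows rising and 7.71% falling. Of 5 erythroid miRNAs 4 were tested and 2 rose, miR-486a-5p from 28.7 and 21.4 CPM in naive to 55.8, 108 and 115 CPM in VM libraries (1.88 ± 0.43, adjusted p = 0.00985) and miR-486b-5p from 30.9 and 24.7 CPM in naive to 67.6, 118 and 128 CPM in VM libraries (1.91 ± 0.39, adjusted p = 0.00617). The levels of these 2 miR-486 rows follow each other over the 5 libraries, so they may not be separate observations. Whether they share reads was not tested. The defining erythroid miRNA, miR-451a, was at 16.9 and 13.3 CPM in naive and 5.37, 28.1 and 17.3 CPM in VM libraries (0.18 ± 0.57, adjusted p = 0.849). On library totals without TMM, as for the sums that follow, the list summed to 63.8 to 85.7 CPM in naive and 117 to 248 CPM in VM libraries. Of 6 tested stromal miRNAs miR-143-3p rose (1.10 ± 0.27, adjusted p = 0.0146), and the list summed to 81.5 to 103 and 93.5 to 175 CPM. Of 7 tested epithelial miRNAs miR-200a-3p rose (0.65 ± 0.20, adjusted p = 0.0394), with sums of 2307 to 2579 and 2326 to 2966 CPM. The liver miRNA miR-122-5p was at 1071 and 851 CPM in naive and 1215, 2738 and 2575 CPM in VM libraries and did not pass (1.18 ± 0.39, adjusted p = 0.0568). The 6 hepatocyte and muscle miRNAs gave no call and summed to 2133 to 2417 and 1964 to 3531 CPM. Neither endothelial and platelet miRNA passed, with miR-126a-3p at 0.99 ± 0.37 (adjusted p = 0.0856), nor did myeloid miR-223-3p, at 1.09 and 0.904 CPM in naive and 0.268, 3.12 and 0.903 CPM in VM libraries. Leaving out 1 library ended the call for miR-486a-5p without naive 2 or 3 (1.51 to 2.20), miR-486b-5p without naive 3 (1.55 to 2.19), miR-143-3p without naive 2 or 3 or VM 2 or 3 (0.73 to 1.30) and miR-200a-3p without naive 2 or 3 or VM 2 or 3 (0.33 to 0.79). VM replicates 2 and 3 were above VM replicate 1 for miR-122-5p, miR-126a-3p, miR-143-3p, miR-10b-5p and both miR-486 rows, and the part of other cells or of carried RNA in these values was not tested.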

How the data were processed

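The labels' protocols describe CD8a bead selection and sorting of spleen cells, extraction in Trizol and NEBNext small RNA libraries. The authors deposited 1 table of expected counts per mature miRNA and hairpin for 11 libraries, on mm10 per the submitters' processing notes, and the aligner and counter are not given in the sources used here. It has 2128 rows, of which 120 repeated a miRNA with identical counts (0.89% of counts) and were removed, since reads seem to have been split equally between its hairpins. The level of such a miRNA is the share of 1 hairpin. Sums by seed and by list kept the repeated rows. The deposited estimated counts were rounded and fitted in edgeR 4.0.16 (R 4.3.3) with TMM scaling, filterByExpr, 4 group means over all 11 libraries and robust quasi-likelihood tests, adjusted by Benjamini-Hochberg over the tested rows. The interaction is the dirty minus the clean change. Standard errors are the log2 change divided by the root of F. The fit was also run on simulated counts, whose outcome is not given here and supports no statement above. Alternatives used limma 3.58.1 and DESeq2 1.42.0, other scalings, filters and row rules, a replicate block, and fits without each library. Named miRNAs are the 15 largest increases and 15 largest decreases among rows that passed, had 10 CPM or more over the clean libraries and did not overlap. Their arm partners, seed and cluster neighbours, the 10 most abundant rows, list members and the 5 smallest interaction p-values could be named too. Only some of these are given. Low rows given by level (miR-7683, miR-7213, miR-450b) and miR-378a-5p were chosen after their values were seen. The comparison and the lists were chosen with earlier results of these data known. Sequences are from RefSeq (GRCm38.p6, 1679 of 1978 names matched), positions cover 1619 rows, and host genes are from GENCODE.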

Additional observations from a re-analysis of the deposited data

Results flagged for a closer look

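Among the 95 rows that passed in clean mice, a few moved in opposite directions in the 2 environments without any overlap of libraries in either. Only these 95 rows were searched. Their clean libraries were separate in all 95, as in 52.7% of all 545 rows. The share of all rows that would meet the rule was not counted. None passed the test of the difference itself (edgeR interaction, dirty minus clean), so the values stand as descriptions.

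miR-361-3p had 965 and 946 CPM in naive and 601, 505 and 553 CPM in VM libraries of clean mice, against 553, 646 and 825 CPM in naive and 946, 1066 and 921 CPM in VM libraries of dirty mice. It was thus lower in VM cells of clean mice and higher in those of dirty mice, and the changes differed by 1.32 ± 0.27 (adjusted p = 0.0935). miR-1291 did the same at a lower level, with 38.4 and 38.3 CPM in naive and 24.2, 14.5 and 16.8 CPM in VM libraries of clean mice and 16.7, 19 and 31.9 CPM in naive and 33.3, 48.5 and 40.2 CPM in VM libraries of dirty mice (difference 1.90 ± 0.42, adjusted p = 0.095). The abundant miR-26a-5p was lower in VM cells of clean mice, as given above, and stood at 21891, 21829.9 and 21719.5 CPM in naive and 22922, 24376 and 22699.7 CPM in VM libraries of dirty mice. Its difference was 0.58 ± 0.21 on the row of mir-26a-2 (adjusted p = 0.203) and 0.58 ± 0.21 on that of mir-26a-1, and the 2 rows share their mature sequence.

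miR-1943-5p went the other way, at 10 and 9.64 CPM in naive and 23.1, 17.2 and 28.9 CPM in VM libraries of clean mice and 25.7, 13 and 12 CPM in naive and 9.22, 9.45 and 11.2 CPM in VM libraries of dirty mice (difference -1.98 ± 0.48, adjusted p = 0.095). Dirty_TN replicate 1 is the highest of its group there. The clean calls of these miRNAs depended on single libraries, and brackets hold log2 changes over the 5 fits without 1 clean library. The call of miR-361-3p was lost without naive 2 or 3 (-0.99 to -0.80). That of miR-1291 was lost without naive 2 or 3 or VM 2 or 3 (-1.23 to -1.08). For miR-1943-5p it was lost without naive 2 or 3 or VM 3 (0.83 to 1.29), and miR-26a-5p is given above.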

How the results depend on the processing

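The number of rows that passed between VM and naive cells of clean mice was 91 to 114 under the alternatives of tool, scaling, filter, summed rows and depth class. On the clean libraries alone 63 rose and 62 fell, and with repeated rows kept 57 and 68. With the replicate block 56 passed (33 higher and 23 lower), and 54 seed totals. The labels give no shared origin for equal numbers, which were taken as names. Deviations of same-numbered libraries correlated at 0.355 and -0.288 in clean mice for numbers 2 and 3, where 2 naive libraries mirror each other and cannot show whether numbers pair, and at -0.628, 0.400 and 0.301 in dirty mice for 1, 2 and 3. Under the block miR-339-5p, miR-872-3p, miR-3474 and let-7f-2-3p no longer passed among the 30 named by size, and miR-151-5p failed when every row with a count was kept.

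With 1 clean library left out, 33 to 98 rows passed, 17 to 56 higher and 16 to 42 lower, and 12 to 78 seed totals. With 1 naive library the lone sample is assumed to vary like the other groups. None of the 30 changed sign in any fit. Without each dirty library, alternatives chosen after seeing the data, 85 to 120 passed, and without Dirty_TN replicate 3 64 of 120 fell. The interaction, at 0 calls, gave 25 in DESeq2, 30 with every counted row, 16 at 10 CPM or more, and 0 to 73 with 1 of the 11 libraries left out (1 without Clean_VM replicate 1, 73 without Dirty_TN replicate 3). The share of the 10 most abundant miRNAs, VM minus naive, turned to -0.162 points without Clean_TN replicate 2 and -0.0745 without Clean_VM replicate 2, and reached 0.538 without Clean_TN replicate 3. The cause of these shifts was not tested. The depth of Clean_TN replicate 3 and Clean_VM replicate 1 limits rows below about 1 CPM.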
